A study of Mus musculus with 12 samples.

Results

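Cxcl12, Cxcr4 and Ackr3 encode a secreted chemokine and its receptors. They were 3 of the 31078 genes counted in lungs of mouse embryos, found by matching the Ensembl IDs of the count table to these symbols, and all 3 were among the 9519 genes that passed a filter on low counts and were tested. The trio was proposed with results of these libraries in view, so the counts compared between the 4 groups are treated as values it was selected on. They are given as a description and carry no p-value. Where a member is said to be called by a fit, this too describes the fit on those counts and supports nothing. The study compared Intu knockout (mutant) with wild-type (WT) lungs, and left with right lungs. The groups were mutant left, mutant right, WT left and WT right lungs, with 3 numbered libraries in each. All embryos were at embryonic day 12.5, on a C57BL/6 background, and came from matings in which both parents carried an Intu knockout allele. The labels do not state which part of Intu the allele removes, whether a library holds 1 embryo or several, or which libraries are littermates. Intu encodes a protein needed to build the primary cilium, through which cells read Hedgehog ligands.

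CXCL12 is a chemokine that mesenchymal and other stromal cells secrete and that binds to heparan sulphate around the cells that make it. CXCR4 is its signalling receptor, a G protein-coupled receptor through which blood vessel cells, blood cell precursors, neural crest cells and other migrating cells are guided. ACKR3 binds the same ligand without coupling to G proteins, takes it up and so removes it from the extracellular space, and also binds adrenomedullin. The level of ligand that CXCR4 meets is therefore set by the source and by the scavenger together.

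Cxcl12 (ENSMUSG00000061353) lies on the plus strand at chr6:117168535-117181367 in GRCm38, with 8176 bases of exon and 4 annotated transcripts, 3 of them coding. Cxcr4 (ENSMUSG00000045382) lies on the minus strand at chr1:128588199-128592293, with 1808 bases of exon and 2 coding transcripts. Ackr3 (ENSMUSG00000044337) lies on the plus strand at chr1:90203980-90216751, with 3348 bases of exon and 2 coding transcripts. The annotation has 0 other genes that overlap any of them. In mutant lungs 2 of 4 tested Hedgehog targets were called lower and 5 of 10 hypoxia-responsive genes higher. Over all tested genes 3.62% were called lower and 2.08% higher. With the left and right libraries of a number summed, the 2 Hedgehog targets were still called and none of the 5 hypoxia-responsive genes was. Both responses have short DNA motifs that can be looked for, so the 250 bases before each start, from RefSeq on GRCm38.p6, are shown. They are chr6:117168285-117168534 on the plus strand, chr1:128592300-128592549 on the minus strand and chr1:90203730-90203979 on the plus strand. Capitals mark the core of the hypoxia response element.
Cxcl12: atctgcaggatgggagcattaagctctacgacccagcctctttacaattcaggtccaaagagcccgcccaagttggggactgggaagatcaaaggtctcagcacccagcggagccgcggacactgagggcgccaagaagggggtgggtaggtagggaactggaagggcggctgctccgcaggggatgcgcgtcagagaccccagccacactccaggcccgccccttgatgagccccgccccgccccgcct
Cxcr4: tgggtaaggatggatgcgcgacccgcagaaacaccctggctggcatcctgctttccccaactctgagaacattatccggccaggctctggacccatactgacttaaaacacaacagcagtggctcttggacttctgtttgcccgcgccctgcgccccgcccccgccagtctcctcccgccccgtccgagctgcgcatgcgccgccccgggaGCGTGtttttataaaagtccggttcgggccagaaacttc
Ackr3: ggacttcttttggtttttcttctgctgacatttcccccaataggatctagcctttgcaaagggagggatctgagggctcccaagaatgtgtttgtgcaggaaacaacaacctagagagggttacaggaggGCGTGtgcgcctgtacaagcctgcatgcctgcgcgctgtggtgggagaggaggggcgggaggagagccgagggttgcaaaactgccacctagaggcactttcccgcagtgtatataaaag
The GLI motif GACCACCCA, searched on both strands, had 0 matches in each of the 3 sequences and at least 1 in 0.225% of 32851 promoter sequences of this length. The hypoxia response element core, ACGTG or GCGTG on either strand, had 0 matches in the Cxcl12 sequence, 1 in the Cxcr4 sequence that begins at -39 from the start, and 1 in the Ackr3 sequence that begins at -120. This core lies in 38.6% of the promoter sequences, so its presence is common, and its letters overlap the E-box CACGTG. A match is a run of letters and not a measured binding site.

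The table gave 10290103 to 10753386 reads per library on the chromosomes it covers. Levels are CPM, a library's counts of a gene as a share of those reads, scaled by TMM. Intu itself was counted at 26.2 to 31.4 CPM in mutant lungs and 28.2 to 34.0 CPM in WT lungs, which overlap, so it did not tell the genotypes apart. Gli1, a direct Hedgehog target, had 151 to 185 CPM in mutant lungs and 345 to 394 CPM in WT lungs, with no overlap. Some libraries stood apart in other genes. Both mutant libraries numbered 2 were high in Pdk1, a hypoxia-responsive kinase gene (192 and 193 CPM), and mutant left 1 held 40.3 CPM of the liver gene Alb. Xist, an RNA made from the inactive X chromosome of female cells, separated the genotypes. It ran from 107 to 985 CPM in mutant lungs and from 1271 to 2269 CPM in WT lungs, with no overlap. The log2 difference was -1.83 (SE 0.47, edgeR adjusted p = 0.0357, but 0.216 with the left and right libraries of a number summed). The labels used here give no sex. Sex make-up and genotype therefore cannot be told apart in any difference between mutant and WT lungs, that of Cxcl12 included.

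Cxcl12 was lower in mutant lungs than in WT lungs on both sides. It had 149, 149 and 156 CPM in mutant left lungs and 170, 165 and 161 CPM in mutant right lungs, against 229, 224 and 245 CPM in WT left lungs and 249, 250 and 262 CPM in WT right lungs. All 6 mutant libraries were below all 6 WT libraries, the highest mutant value being 170 CPM and the lowest WT value 224 CPM. The means were 158 ± 8.69 CPM in mutant lungs and 243 ± 14.1 CPM in WT lungs (SD, n = 6 each). The mutant level was 0.65-fold the WT level, a log2 difference of -0.62 (SE 0.04, -0.69 to -0.55 at 1.96 SE on each side). Of the 3 members 1, Cxcl12, was among the genes that edgeR called (adjusted p under 0.05). Over all tested genes 3.62% were called lower and 5.70% were called in either direction, and 2.65% were lower with groups that did not overlap. With the left and right libraries of a number summed, Cxcl12 was still called, where 1.04% of 10203 genes were called lower. The trio was chosen with these values in view, so its share is not read against those percentages.

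The Cxcl12 libraries of a group were close to each other. The coefficient of variation was 2.82% in mutant left lungs, 2.80% in mutant right lungs, 4.73% in WT left lungs and 2.76% in WT right lungs. Each library held between 1521 and 2734 Cxcl12 reads, for which counting error by itself gives 1.91% to 2.56%. Among the 2686 tested genes with a mean of at least 100 CPM, 12 had a log2 difference as low as that of Cxcl12 or lower, Cxcl12 included, and 6 were higher by the same size or more.

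**Figure D1:**
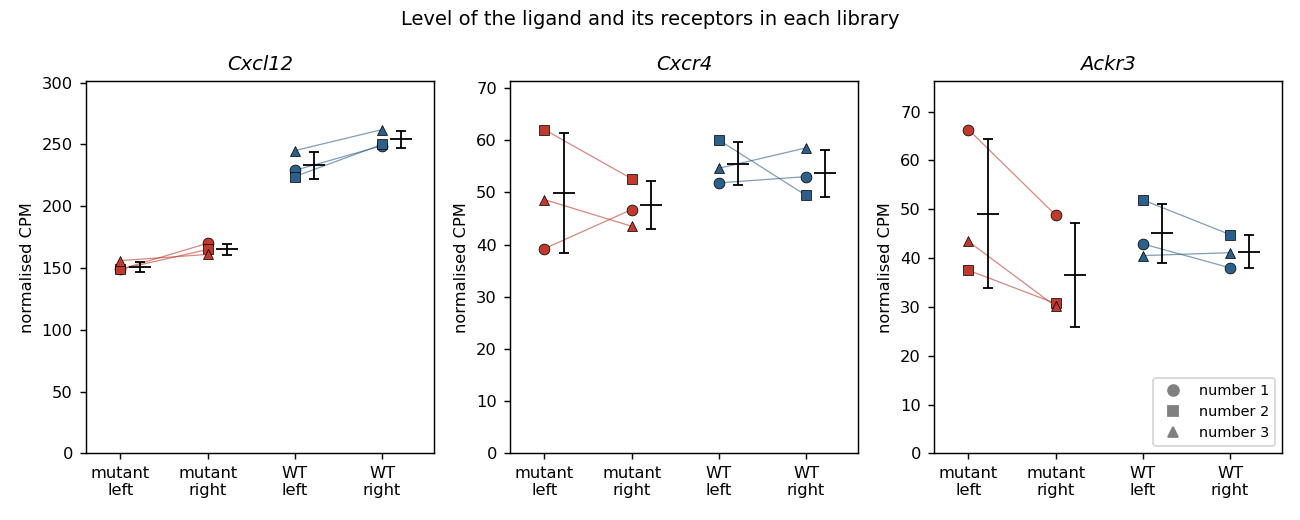
Levels of Cxcl12, Cxcr4 and Ackr3 in CPM (vertical axes, from 0) in the 12 libraries, with 3 per group; symbols give the library number, thin lines join left and right libraries of a number, and the bar beside each group is the mean ± SD. For Cxcl12 the mutant libraries sit between 149 and 170 CPM and the WT libraries between 224 and 262 CPM, while the Cxcr4 and Ackr3 libraries of the genotypes overlap.

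Cxcr4, the signalling receptor, had overlapping levels in the 4 groups. It had 39.2, 62.0 and 48.6 CPM in mutant left lungs and 46.7, 52.6 and 43.5 CPM in mutant right lungs, against 51.8, 60.0 and 54.6 CPM in WT left lungs and 53.0, 49.4 and 58.5 CPM in WT right lungs. The highest and the lowest library were both mutant left lungs, and the genotypes overlapped. The means were 48.8 ± 7.92 CPM in mutant lungs and 54.5 ± 4.02 CPM in WT lungs (SD, n = 6 each). The log2 difference was -0.16 (SE 0.09, -0.35 to 0.02).

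The high Cxcr4 values of mutant lungs came from the libraries numbered 2, at 62.0 CPM on the left and 52.6 CPM on the right. Leaving out the highest libraries of mutant lungs lowers the mutant mean by construction. Without these libraries, the log2 difference was -0.29 (SE 0.07) and Cxcr4 was called, from which nothing is read. The same libraries had the largest summed level of 10 hypoxia-responsive genes, 5462 CPM on the left and 4818 CPM on the right, against 2993 to 3639 CPM in the other mutant libraries and 2419 to 3071 CPM in WT libraries. They also had the largest summed level of 13 markers of blood vessel endothelium, a cell type that carries CXCR4, at 2153 and 1970 CPM, against 1554 to 1741 CPM in the other mutant libraries and 1642 to 1769 CPM in WT libraries. Endothelium was not alone in this. The summed level of 6 lung epithelium markers was also largest in these libraries, at 402 and 420 CPM. It was 343 to 389 CPM in the other mutant libraries and 348 to 380 CPM in WT libraries. Mutant left 2 also had the largest summed levels of erythroid markers (3897 CPM) and arterial markers (616 CPM). Cxcr4 did not follow these sums in every library. WT left 2 had the highest WT value of Cxcr4, 60.0 CPM. Its endothelium sum was the lowest of WT libraries, at 1642 CPM, and its hypoxia sum was 2836 CPM. Mutant right 2, whose endothelium and hypoxia sums were above every WT library, had a Cxcr4 level within the WT range of 49.4 to 60.0 CPM. The part of any of these summed levels in the Cxcr4 levels was not tested.

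Ackr3, the scavenging receptor, varied most among mutant libraries. It had 66.3, 37.5 and 43.4 CPM in mutant left lungs and 48.8, 30.7 and 30.1 CPM in mutant right lungs, against 42.9, 51.9 and 40.5 CPM in WT left lungs and 38.0, 44.8 and 41.1 CPM in WT right lungs. The mutant libraries held both the highest and the lowest values and enclosed the WT range. The means were 42.8 ± 13.6 CPM in mutant lungs and 43.2 ± 4.84 CPM in WT lungs (SD, n = 6 each), which is a coefficient of variation of 31.8% in mutant lungs and 11.2% in WT lungs. The log2 difference was -0.03 (SE 0.15, -0.31 to 0.26).

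The libraries numbered 1 held the highest Ackr3 of mutant lungs on each side. Without them the Ackr3 log2 difference was -0.30 (SE 0.08) and was not called, and without the mutant libraries numbered 2 it was 0.11 (SE 0.14). The mutant libraries numbered 1 also had the lowest Xist values, 118 CPM on the left and 107 CPM on the right. Mutant left 1 was the library that stood apart in Alb, a gene that passed the filter on low counts and so had reads in other libraries too. Their summed level of 5 mesothelium markers was 358 and 374 CPM, against 285 to 317 CPM in the other mutant libraries and 305 to 386 CPM in WT libraries. The part of these in the Ackr3 levels was not tested.

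The Cxcl12 difference had the same size on each side. The log2 difference was -0.62 in left lungs (SE 0.05, -0.72 to -0.52) and -0.62 in right lungs (SE 0.05, -0.72 to -0.52), so the estimates differed by less than their errors. Of all tested genes 0.872% were called lower in left lungs and 1.18% in right lungs; Cxcl12 was among them on both sides, from which nothing is read. The difference between the sides in the genotype effect, the interaction, was 0.00 (SE 0.07, -0.15 to 0.14). For Cxcr4 the log2 difference was -0.15 in left lungs (SE 0.13) and -0.17 in right lungs (SE 0.13), with an interaction of 0.02 (SE 0.19). For Ackr3 it was 0.12 in left lungs (SE 0.20) and -0.18 in right lungs (SE 0.21), with an interaction of 0.30 (SE 0.29, -0.27 to 0.87). The edgeR interaction test called 0% of the 9519 genes, while 124 had an unadjusted p under 0.05, and DESeq2 and limma-voom called 0.

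Cxcl12 was lower in left than in right lungs, by a small amount, in mutant and in WT embryos. All 3 left libraries were below all 3 right libraries in mutant embryos (149 to 156 CPM on the left, 161 to 170 CPM on the right) and in WT embryos (224 to 245 CPM on the left, 249 to 262 CPM on the right). The log2 difference of left to right was -0.13 in mutant embryos (SE 0.05, -0.23 to -0.03) and -0.12 in WT embryos (SE 0.05, -0.22 to -0.03). Left and right libraries of a number behaved as pairs within a genotype, and in these pairs the differences were -0.19, -0.15 and -0.04 in mutant embryos and -0.12, -0.16 and -0.10 in WT embryos, so left was lower in 6 of 6. Groups that did not overlap, with left lower, were found for 4.21% of tested genes in mutant embryos, 4.24% in WT embryos and 0.389% in both. The side difference of Cxcl12 was not called in either genotype, with or without pairs. Without pairs, edgeR called 0% of genes between mutant left and right lungs, where 358 had an unadjusted p under 0.05, DESeq2 called 4 and limma-voom 0, and it called 0.0105% between WT left and right lungs.

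Ackr3 was higher in left than in right mutant lungs in each pair, with log2 differences of 0.44, 0.29 and 0.53. Its libraries overlapped, and the difference was 0.43 (SE 0.21, 0.02 to 0.83), not called without pairs. With pairs it was 0.42 (SE 0.07). In these fits 0.452% of tested genes were called between mutant sides, Ackr3 among them, and 0.662% between WT sides, and nothing is read from that call. In WT pairs the Ackr3 differences were 0.18, 0.21 and -0.02, so left was higher in 2 of 3, and the mean was 0.13 (SE 0.21). The difference between the genotypes in this side effect was 0.30 (SE 0.10) with pairs and was not called. Leaving out mutant left 1 alone gave 0.15 (SE 0.18) between mutant sides. Cxcr4 had a log2 difference of left to right of 0.07 (SE 0.13) in mutant embryos and 0.05 (SE 0.13) in WT embryos.

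**Figure D2:**
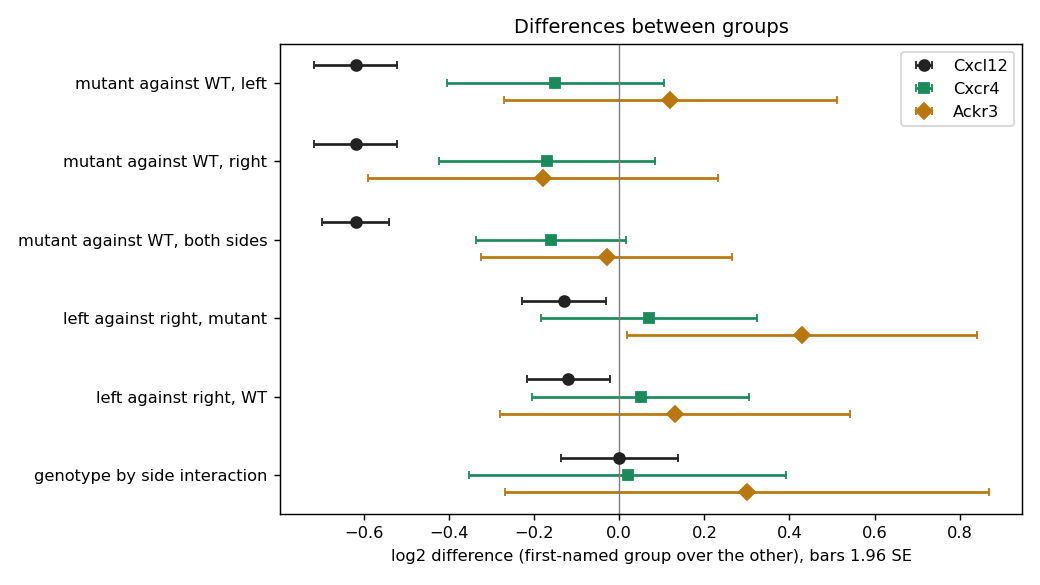
Log2 differences (horizontal axis) of the 3 genes in each comparison, as points with bars of 1.96 SE on each side from the edgeR fit of 12 libraries without pairs. The Cxcl12 bars of mutant against WT lie around -0.62 in left, right and both sides together, the Cxcr4 bars reach 0, and the Ackr3 bars are the widest.

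Compared per kilobase of annotated exon, the 3 genes were within a small range of each other. Cxcl12 had 19.3 ± 1.06 CPM per kb in mutant lungs and 29.7 ± 1.73 in WT lungs, Cxcr4 had 27.0 ± 4.38 in mutant lungs and 30.2 ± 2.22 in WT lungs, and Ackr3 had 12.8 ± 4.06 in mutant lungs and 12.9 ± 1.45 in WT lungs (SD, n = 6 each). In WT lungs Cxcl12 and Cxcr4 differed by less than their spread and Ackr3 was below both, while in mutant lungs the mean of Cxcl12 lay between those of Cxcr4 and Ackr3, whose highest library, mutant left 1, was within the Cxcl12 range. The order of the ligand and Cxcr4 depends on the length used. Divided by the longest coding transcript, Cxcl12 had 28.1 CPM per kb in mutant lungs and 43.2 in WT lungs, and Cxcr4 had 27.0 in mutant lungs and 30.2 in WT lungs. By exon length, 69.1% of tested genes had a lower level than Cxcl12 in mutant lungs and 78.4% in WT lungs.

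The ratio of Cxcl12 to Cxcr4 per kb was 0.732 ± 0.116 in mutant lungs and 0.990 ± 0.0962 in WT lungs (SD, n = 6 each). It ran from 0.530 to 0.839 in mutant libraries and from 0.825 to 1.12 in WT libraries, so the genotypes overlapped by a narrow margin. The ratio of Cxcl12 to Ackr3 was 1.64 ± 0.492 in mutant lungs and 2.33 ± 0.336 in WT lungs, with ranges of 0.919 to 2.20 in mutant libraries and 1.76 to 2.68 in WT libraries, which overlap. These ratios hold the Cxcl12 difference already given and the spread of each receptor, and they are of RNA and not of protein.

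**Figure D3:**
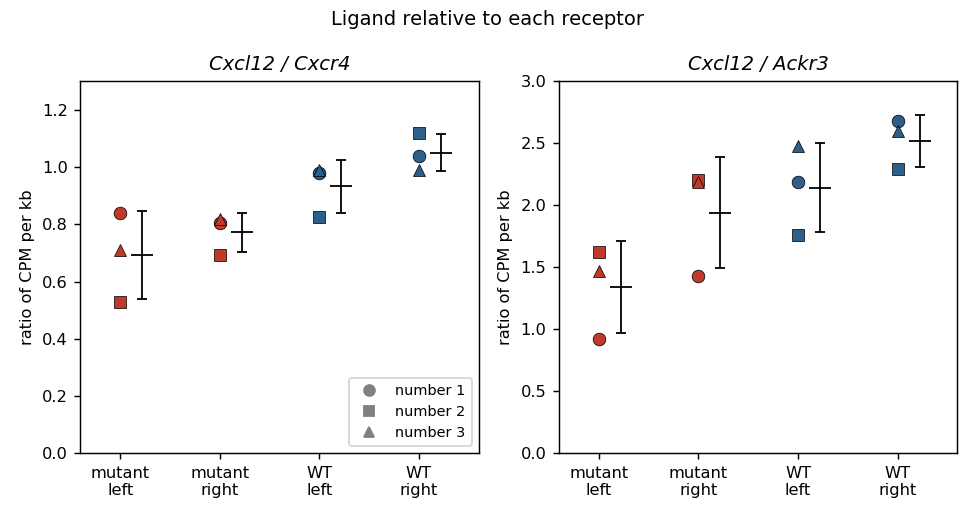
Ratio of the CPM per kb of Cxcl12 to that of Cxcr4 (left panel) and Ackr3 (right panel) in the 12 libraries, from 0; symbols give the library number and bars the mean ± SD of 3 libraries. The Cxcl12 to Cxcr4 ratio lies between 0.530 and 0.839 in mutant libraries and between 0.825 and 1.12 in WT libraries.

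Across the 12 libraries, of which left and right share a number, the Pearson correlation of log2 CPM was 0.44 between Cxcl12 and Cxcr4, 0.01 between Cxcl12 and Ackr3, and -0.28 between Cxcr4 and Ackr3. For the deviations from the group means it was 0.06 between Cxcl12 and Cxcr4, -0.01 between Cxcl12 and Ackr3, and -0.53 between Cxcr4 and Ackr3. Mutant left 1 had the lowest Cxcr4 and the highest Ackr3 of the 12 libraries. Each gene was then set against the 6647 tested genes with a mean of at least 5 CPM by the correlation of log2 CPM over the 12 libraries, given as a description. For Cxcl12 most of such a value comes from the gap between the genotypes, so the correlation of deviations from group means stands beside it.

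Most like Cxcl12 were Synpo2, which encodes an actin-binding protein of muscle (r = 0.986, 0.885 in deviations), Tspan2, a tetraspanin (0.986, 0.417), Fhdc1, a formin family member (0.981, 0.589), and Actg2, smooth muscle gamma actin (0.981, 0.635). Synpo2 averaged 24.7 ± 2.26 CPM in mutant lungs and 101 ± 12.1 CPM in WT lungs, and Actg2 56.5 ± 3.34 CPM in mutant lungs and 225 ± 23.1 CPM in WT lungs (SD, n = 6 each). Their log2 differences of -2.04 (SE 0.08) and -1.99 (SE 0.07) were larger than that of Cxcl12, that of Fhdc1 was -1.33 (SE 0.06) and that of Tspan2 -0.67 (SE 0.05).

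Most like Cxcr4 were Vim, which encodes the intermediate filament vimentin (r = 0.931, 0.952 in deviations), F3, tissue factor (0.925, 0.967), Tagln2, an actin-binding protein (0.903, 0.929), and Arpc3, an Arp2/3 subunit (0.890, 0.902). Most like Ackr3 were Rab32, a small GTPase gene (0.920, 0.945), the chemokine gene Cxcl13 (0.891, 0.942), Rspo3, which encodes an enhancer of Wnt signalling (0.885, 0.943), and Adamtsl3 (0.873, 0.930). Cxcl13 had 36.6, 3.83 and 12.1 CPM in mutant left lungs and 26.4, 3.55 and 6.46 CPM in mutant right lungs, against 13.5, 25.1 and 11.9 CPM in WT left lungs and 9.46, 13.1 and 7.08 CPM in WT right lungs. The libraries numbered 1 were thus the highest of the mutant libraries in Cxcl13 on each side, as in Ackr3, and its log2 difference between the genotypes was 0.17 (SE 0.49). The log2 differences of the other 7 genes were between -0.42 and 0.27, and none of the 8 was called.

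**Figure D4:**
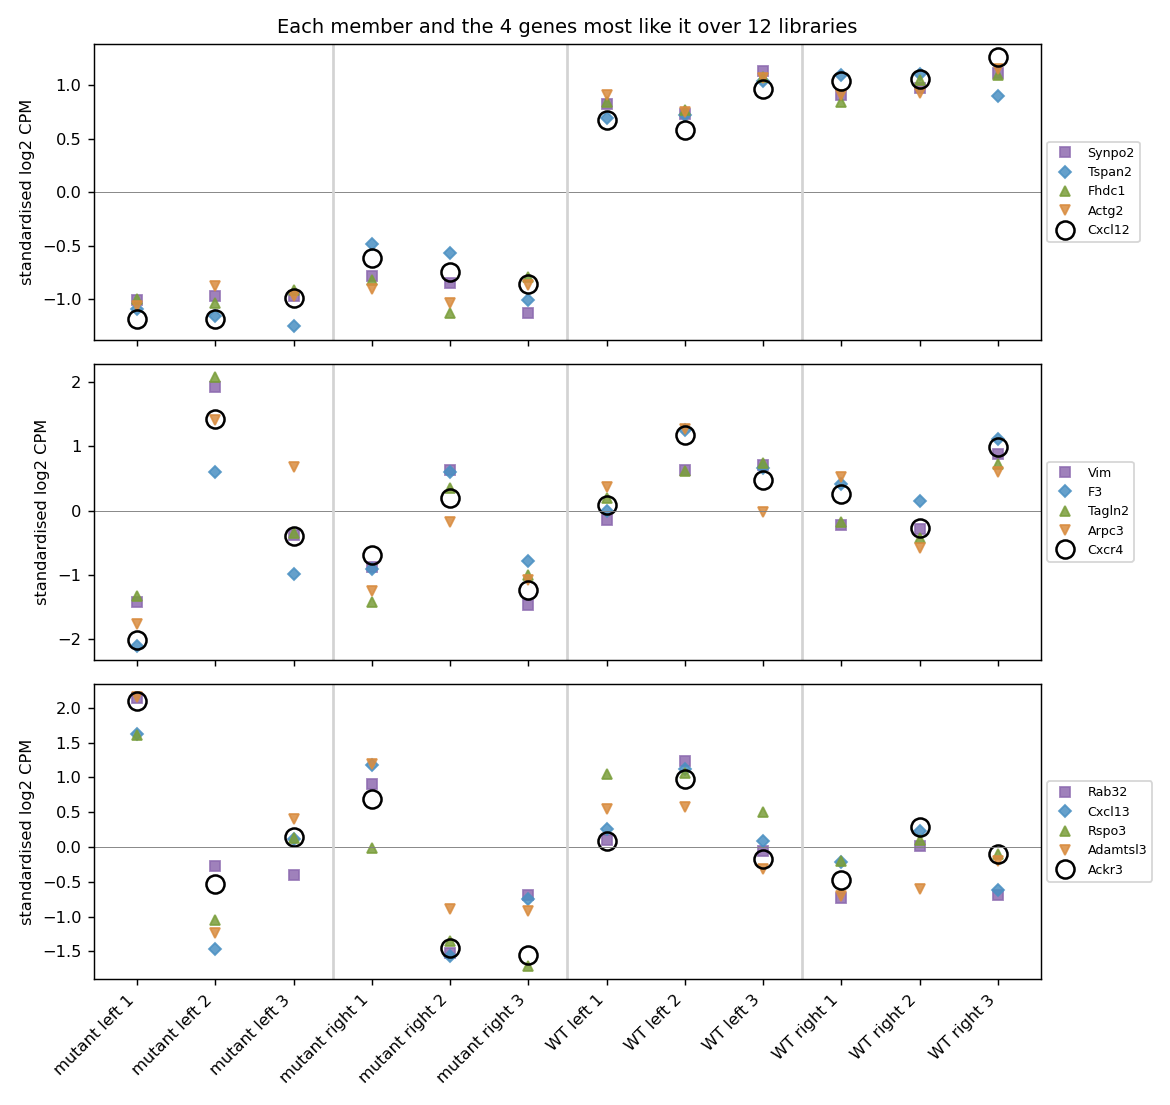
Log2 CPM of each member and of the 4 genes most like it, each centred on its mean and divided by its SD over the 12 libraries (vertical axes); open circles are the member. The Cxcl12 panel splits by genotype, and the other panels follow single libraries, among them mutant left 2 for Cxcr4 and mutant left 1 for Ackr3.

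The other genes of the pathway were read from lists of known members. Over all tested genes 3.62% were called lower and 2.08% higher in mutant lungs, which is the background for each list's count. Of 40 other chemokine ligands 22 were in the table, 7 of these had 0 reads in every library, and 8 passed the filter. Of the 8, 2 were called lower in mutant lungs and 0 higher. The difference was negative for 7 and positive for 1, with a median log2 difference of -0.47 against 0.00 over all tested genes. Ppbp, a platelet chemokine, had 2.12, 4.47 and 5.77 CPM as the lowest, median and highest values in mutant lungs, against 6.60, 11.1 and 20.3 CPM in WT lungs, with no overlap (log2 difference -1.55, SE 0.25, edgeR adjusted p = 0.00177). Pf4, platelet factor 4, averaged 9.81 ± 1.07 CPM in mutant lungs and 16.8 ± 4.38 CPM in WT lungs (-0.76, SE 0.12, edgeR adjusted p = 0.00220). With the left and right libraries of a number summed, the edgeR adjusted p was 0.0462 for Ppbp and 0.0397 for Pf4. Both are genes of platelets, megakaryocytes and some macrophages. Of 21 other chemokine receptors 4 were in the table and 1 passed the filter. This was Ackr1, an atypical receptor of red cells and venules, which fell to 2.51 ± 0.595 CPM in mutant lungs, against 4.04 ± 0.388 CPM in WT lungs (-0.70, SE 0.14, edgeR adjusted p = 0.0106, but 0.106 with the left and right libraries of a number summed).

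Of 15 tested partners outside the cell (proteoglycans, proteases, integrins and other binders), 3 were called lower and 0 higher. Over all tested genes 3.62% were called lower and 2.08% higher. The difference was negative for 7 of the 15 and positive for 8, and the median was 0.02. Mmp9, a protease that can cleave CXCL12, was barely counted. It averaged 0.709 ± 0.272 CPM in mutant lungs and 1.91 ± 0.359 CPM in WT lungs, with no overlap (-1.49, SE 0.22, edgeR adjusted p = 0.00105, and 0.0317 with sides summed). Itga4, an integrin subunit of migrating leukocytes, averaged 37.9 ± 6.56 CPM in mutant lungs and 50.9 ± 5.83 CPM in WT lungs (-0.42, SE 0.10, edgeR adjusted p = 0.0297, but 0.182 with sides summed), and was called in 4 of 18 fits that left out a library or both libraries of a number. Hmgb1, whose protein can form a complex with CXCL12, averaged 465 ± 42.7 CPM in mutant lungs and 589 ± 85.4 CPM in WT lungs (-0.34, SE 0.09, edgeR adjusted p = 0.0456, but 0.240 with sides summed), was called in 6 of those 18 fits, and has many processed copies in the genome that make its count uncertain. Dpp4, the peptidase that trims the ligand, was not called (-0.04), nor was Adm, the gene of adrenomedullin (0.39, SE 0.21).

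Of 33 tested genes of signal transduction below CXCR4, 2 were called lower, near the background share, and 0 were called higher. The difference was negative for 23 and positive for 10, and the median was -0.03. Gnai1, which encodes an inhibitory G protein alpha subunit, averaged 96.6 ± 6.61 CPM in mutant lungs and 122 ± 4.05 CPM in WT lungs, with no overlap (-0.33, SE 0.05, edgeR adjusted p = 0.000743, and 0.0223 with sides summed). Rgs2, a regulator that speeds up GTP hydrolysis by G proteins, had 44.8, 50.3 and 60.8 CPM as the lowest, median and highest values in mutant lungs, against 64.5, 72.7 and 74.2 CPM in WT lungs (-0.44, SE 0.07, edgeR adjusted p = 0.00331, but 0.0705 with sides summed). The arrestin gene Arrb1 (-0.12) and the receptor kinase gene Grk3 (0.03) were not called.

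Of 4 tested Hedgehog targets 2 were called lower in mutant lungs and 0 higher. All 4 had a negative difference, but those of Ccnd1 (-0.01, SE 0.04) and Ccnd2 (-0.01, SE 0.05) were smaller than their errors. In right lungs the difference was negative for 3 and positive for 1. Gli1 had a log2 difference of -1.10 (SE 0.05, edgeR adjusted p = 1.54e-08, and 7.84e-05 with sides summed). Hhip, a ligand-binding inhibitor, had one of -0.85 (SE 0.08, edgeR adjusted p = 3.81e-05, and 0.00595 with sides summed). All 10 hypoxia-responsive genes had a positive difference (median 0.52), and 5 were called higher, namely Ldha, Pgk1, Pdk1, Aldoa and P4ha1, with log2 differences from 0.39 to 0.78. Without the mutant libraries numbered 2 these 5 differences were 0.23 to 0.38, all still called. None of the 5 was called when both WT libraries of any 1 number were left out. Over the 18 fits that left out a library or both libraries of a number, Ldha was called in 13 and Pgk1 in 9. Pdk1 was called in 8 of them, Aldoa in 8 and P4ha1 in 7. The genotypes overlapped for each of the 5, and none was called with sides summed, with edgeR adjusted p from 0.155 to 0.218. Over the 6 pathway lists the number called higher was also 0 without WT left 3 or WT right 2, 1 without WT left 1, WT right 3 or mutant right 2, 2 without WT left 2, and 3 without WT right 1.

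**Figure D5:**
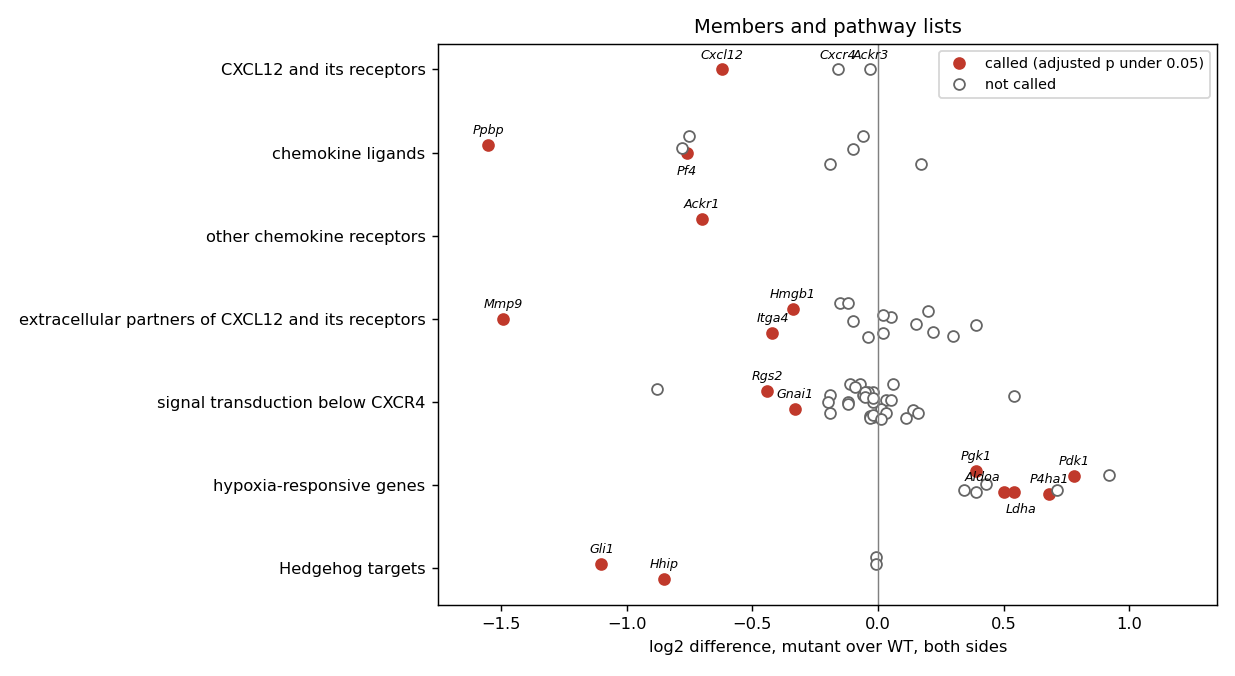
Log2 difference of mutant over WT lungs, both sides together (horizontal axis), of the 3 members and of the tested genes of each pathway list (rows); filled points were called by edgeR and carry their names. Cxcl12 is at -0.62, the called genes of the chemokine, partner, signal transduction and Hedgehog lists lie below 0, and those of the hypoxia list above 0.

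Lungs were measured whole, so fewer cells of a type and less RNA per cell cannot be told apart, for Cxcl12 as for any gene here. The background for the counts of called markers in each cell type list is again 3.62% of all tested genes called lower and 2.08% higher. Of the cell type lists, those of smooth muscle and leukocytes had summed levels below the WT range in every mutant library, as Cxcl12 had. All 6 tested smooth muscle markers were lower in mutant lungs, among them Hhip, which is also a Hedgehog target, and their summed level was 399 to 435 CPM in mutant lungs and 810 to 987 CPM in WT lungs. With sides summed 5 of the 6 were called, without Des. All 16 leukocyte markers had a negative difference (206 to 261 CPM summed in mutant lungs, 285 to 345 CPM in WT lungs). Of these 8 were called lower, among them Laptm5 (-0.53, SE 0.06), and 0 higher. With sides summed 3 of these 8 were called, namely Laptm5, Mrc1 and Coro1a. Of 15 markers of autonomic neurons and neural crest 8 were called lower, among them Stmn2 (-1.43, SE 0.15), and 0 higher, and 5 of the 15 had a positive difference. Their summed level over 16 genes overlapped, at 201 to 235 CPM in mutant lungs and 213 to 276 CPM in WT lungs, and with sides summed 6 of the 8 were called. None of the genes of these lists that the table holds was at 0 in all libraries.

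Lung mesenchyme is the class of cells that includes known makers of CXCL12, and its list holds general markers that do not single out those makers. Of 12 such markers 3 were called higher in mutant lungs and 0 lower. The difference was positive for 10 of the 12 and negative for 2, with a median log2 difference of 0.07. In left lungs it was positive for 7 and negative for 5. Their summed level was 10476 to 11527 CPM in mutant lungs and 9815 to 10240 CPM in WT lungs. With sides summed 1 of the 3 was called, Prrx1, and Col3a1 and Tbx3 were not. Prrx1, a mesenchymal transcription factor gene, averaged 63.5 ± 10.3 CPM in mutant lungs and 35.2 ± 5.67 CPM in WT lungs (0.86, SE 0.09, edgeR adjusted p = 7.03e-05, and 0.00975 with sides summed). Of 13 markers of blood vessel endothelium 1 was called higher and 0 lower (1554 to 2153 CPM summed in mutant lungs, 1642 to 1769 CPM in WT lungs). Of 9 arterial markers 1 was called lower, of 5 mesothelium markers 1 was called lower, of 6 epithelium markers 1 was called higher, and of 8 erythroid markers 0 were called by edgeR. None of these single calls (Sox18, Efnb2, Upk3b and Elf3) was made with sides summed, with edgeR adjusted p from 0.0867 to 0.203. The part of any of these cell types in the Cxcl12 difference was not tested.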

How the data were processed

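RNA of 12 lung libraries was sequenced. What the authors deposited is a table of raw counts, 1 row per gene. The submitters' processing notes name FastQC, HISAT2, featureCounts and GRCm38. Neither their versions nor the strand setting were given in the sources used here. The deposited exon length (another column, in bases) served for CPM per kb. As used here, the table covers chromosomes 1 to 7, 10, X and part of 8, so library totals are part of the depth, and 1 incomplete row was dropped. Symbols matched 30915 IDs (99.5%). Chi-square per degree of freedom between libraries of 1 group was 4.34 to 12.8, so none was a duplicate. The labels do not say that libraries of a group are separate embryos. The spread behind each p-value is therefore that between these libraries, and it may be technical.

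Genes were filtered with filterByExpr (minimum count 10, minimum total 15), scaled by TMM (0.992 to 1.01) and tested in R 4.3.3 by the quasi-likelihood test of edgeR 4.0.16, in a model of the 4 groups without covariates (8 residual degrees of freedom). Benjamini-Hochberg adjustment ran over the 9519 genes of each comparison, and a gene is called at an adjusted p under 0.05. The procedure was run on simulated data with known changes. For mutant against WT over both sides it called 46% of 1.25-fold and 94% of 4-fold changes, and 0.0644% of unchanged genes. The simulated left and right libraries were independent, so this does not show how the test behaves with pairs. Alternatives used DESeq2 1.42.0, limma 3.58.1 (voom), DESeq2 size factors, library totals, no filter, fits of 2 groups, fits with pairs, and fits that left out libraries.

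Within each genotype, left and right libraries of a number deviated from their group means together (correlation 0.253 to 0.486 in 6 pairs, against -0.393 to -0.00284 for different numbers and -0.121 to -0.0416 across genotypes). On that ground they were treated as pairs within a genotype in the fits with pairs and with sides summed. The labels do not state the pairing. The main fit took all libraries as independent, so its SE and adjusted p do not allow for pairs.

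The members and lists were chosen with earlier results of these data known. Other genes were named by rule: Intu, Gli1, Xist, Alb and Pdk1 as checks, up to 6 called genes of a pathway list and 3 of a cell type list by p, and the 4 genes most correlated with each member (log2 CPM, prior count 2, mean of at least 5 CPM, no predicted genes). Dpp4, Adm, Arrb1 and Grk3 were added after their values were seen. For a symbol with several IDs the one with most reads was used. One gene of a pathway list is not reported here, and the list is counted without it.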

Additional observations from a re-analysis of the deposited data

How the results depend on the processing

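The log2 difference of Cxcl12 between the genotypes was -0.64 to -0.59 over 25 alternatives and was called in each, as it was in left and in right lungs. Over the same 25, that of Cxcr4 was -0.29 to -0.08 and that of Ackr3 -0.30 to 0.11. No alternative turned the direction of a called value. Of the 9519 genes, 543 were called between the genotypes, against 344 with pairs as a random effect, 141 with the sides of a pair summed and 1084 without a filter, and 263 to 636 when libraries were left out. Of the 3 members 1 was called, and 1 to 2 when libraries were left out. Genes of the pathway lists were called higher 5 times, against 0 with sides summed, 3 with limma-voom, 2 with pairs as a random effect, 14 without a filter, and 0 to 9 when libraries were left out; they were called lower 10 times, against 6 with sides summed. In left lungs 112 genes were called, against 193 with DESeq2, 510 without a filter, 24 with the number as a block across genotypes, 49 with only these 2 groups, and 45 to 137 when libraries were left out. In right lungs 144 were called, against 224 with DESeq2, 595 without a filter, 74 with the number as a block, and 48 to 175 when libraries were left out. Between WT sides 1 gene was called, against 11 with DESeq2, 63 with pairs, 46 without a filter, 8 with only these 2 groups, and 0 to 7 when libraries were left out. Between mutant sides 0 were called by edgeR, against 4 with DESeq2, 43 with pairs, 31 without a filter, and 0 to 1 when libraries were left out; of the members, 0 were called, against 1 (Ackr3) with pairs and 1 without a filter. For the interaction 0 were called by edgeR, against 2 with pairs and 6 without a filter. The replicate block, as pairs or summed sides, changed no other call of a member. The causes of these shifts were not tested. Same-numbered libraries across genotypes do not pair, so a call lost there is not read as a weaker effect. Depth limits the low genes: Mmp9 and Ackr1 had few reads per library.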
